A study of Medicago truncatula with 48 samples.

Results

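The transcripts described here are 20 of the 44473 transcripts measured in seeds of the model legume Medicago truncatula (A17). They were selected on the measured levels of the standard libraries: the level was higher at the end than at the start of seed maturation in the embryo, and lower at the end than at the start in the endosperm, in seeds grown at standard temperature. Levels are given as y, the estimated counts of a transcript per 1000000 counts of its library, where the total leaves out the 100 largest counts of that library. The rule compared log2(mean y + 1) between the last stage (S4) and the first stage (S1). It asked for a rise of at least 1.5 in embryo and a fall of at least 1.5 in endosperm, for transcripts whose highest mean y over the standard groups was 10 to 2000 and lay less than 1 above the next group on that log2 scale. Of the 15773 transcripts open to this rule, 20 (0.127%) met it. They are numbered by the size of the difference between the tissues, from 1, the largest, to 20.

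The dataset consisted of 48 RNA-seq libraries in 20 groups, made from dissected seed tissues of a single genotype. Heat groups came from plants kept at 26 °C by day after flowering and their seeds were taken 14, 17, 22 and 28 days after pollination (DAP) for stages S1 to S4. Standard groups came from plants kept at 20 °C by day with seeds taken at 17, 26, 36 and 44 DAP for the matching stages. Embryo was sampled at 4 stages with 3 replicates a group, endosperm at 4 stages with 2 replicates, and seed coat at S1 and S2 with 2 replicates. Each replicate was a pool of dissected tissue, and the labels do not say whether the pools came from separate plants, so p-values measure the spread between these pools only. Stages were matched by seed development and not by age, so heat and standard groups of a stage differ in DAP as well as in temperature, and age and temperature cannot be told apart.

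A seed holds an embryo, which becomes the next plant, and an endosperm, a nutritive tissue from a second fertilization, both inside a seed coat of maternal origin. In legumes most reserves end up in the embryo, and the endosperm of Medicago stays as a thin layer around it in the mature seed. During maturation the embryo fills with storage compounds, becomes tolerant to drying, and then acquires longevity, which is the ability to stay alive in the dry state. Stages S1 and S2 lie before and after the acquisition of desiccation tolerance, and S3 and S4 at the onset of longevity and in the mature seed. The deposited table pairs no identifier with a gene name, so the roles of the members are not known here and they are described by their levels.

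Library totals were 17690405 to 20084649 estimated counts in embryo, 17864494 to 18649177 in endosperm and 21549778 to 53776178 in seed coat. The 100 largest counts of a library took 41.5% to 79.5% of the total in embryo, 18.7% to 39.9% in endosperm and 18.2% to 30.1% in seed coat, which is why they were left out of y. Tissue identity was checked with transcripts that told the tissues apart at the other temperature, none of them a member. The 56 transcripts high in endosperm summed to y of 87.7, 82.0 and 231 in embryo heat S4 replicates 1, 2 and 3, with 41, 39 and 48 of the 56 detected, and to 6.54 to 28.6 in embryo heat S1. In endosperm they summed to 2660 to 2780 in heat S4 and 2760 to 2830 in heat S1. The 145 transcripts high in seed coat summed to 193 to 291 in embryo heat S4 and 19.0 to 74.0 in embryo heat S1, against 14100 to 15100 in seed coat under heat. The signal of both lists in embryo libraries was small beside that in their own tissue, and higher at S4 than at S1. Both lists were chosen to be near absent in embryo S1 and S2, with no limit on embryo S3 and S4. A signal higher at S4 than at S1 is thus partly built into the lists. The 8 transcripts high in embryo summed to 322 to 422 in embryo heat S4, against 20.2 to 25.2 in endosperm heat S4. At heat S1 they summed to 599 to 732 in embryo and 13.7 to 21.7 in endosperm, so their embryo signal was lower at S4 than at S1.

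In the standard libraries, which chose the members, the rise in embryo ran from 1.66 to 4.22 with a median of 2.30 on the log2(mean y + 1) scale. The change in endosperm ran from -5.27 to -1.5 with a median of -1.84. These values are a description, since the rule fixed them. Near the thresholds, the 3 members closest to one had endosperm changes of -1.502, -1.507 and -1.557, and the 3 transcripts just outside had -1.494, -1.49 and -1.476. The members thus grade into transcripts with nearly the same values. On either side taken alone the pattern was common, with 2165 open transcripts rising by 1.5 or more in embryo and 2291 falling by as much in endosperm. The reverse combination, a fall in embryo with a rise in endosperm, was met by 69 transcripts.

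Under heat, in libraries that the rule did not use, the median of the members' mean y was 3.24, 6.98, 13.1 and 13.7 in embryo at S1, S2, S3 and S4, and 19.1, 14.5, 8.17 and 9.83 in endosperm. In the standard libraries it was 1.89, 5.31, 10.4 and 18.4 in embryo and 31.5, 16.4, 6.13 and 8.41 in endosperm at the same stages. The members as a set thus kept an ascending embryo course and a descending endosperm course until S3, while the endosperm median was slightly higher at S4 than at S3 at both temperatures. Per transcript length and over the whole library, the median TPM from S1 to S4 was 1.06, 1.49, 4.15 and 7.99 in heat embryo. In heat endosperm it was 13.1, 9.99, 4.10 and 2.73, so that it was also lower at S4 than at S3, unlike the median y. The total behind TPM includes the 100 largest counts that y leaves out, so TPM and y differ by more than length. Those counts took 66.0% to 69.0% of the total in heat embryo S3 libraries and 41.5% to 50.8% in heat embryo S4 libraries. All these levels are relative within a library, so fewer cells with a transcript and less of it per cell cannot be told apart.

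**Figure D1:**
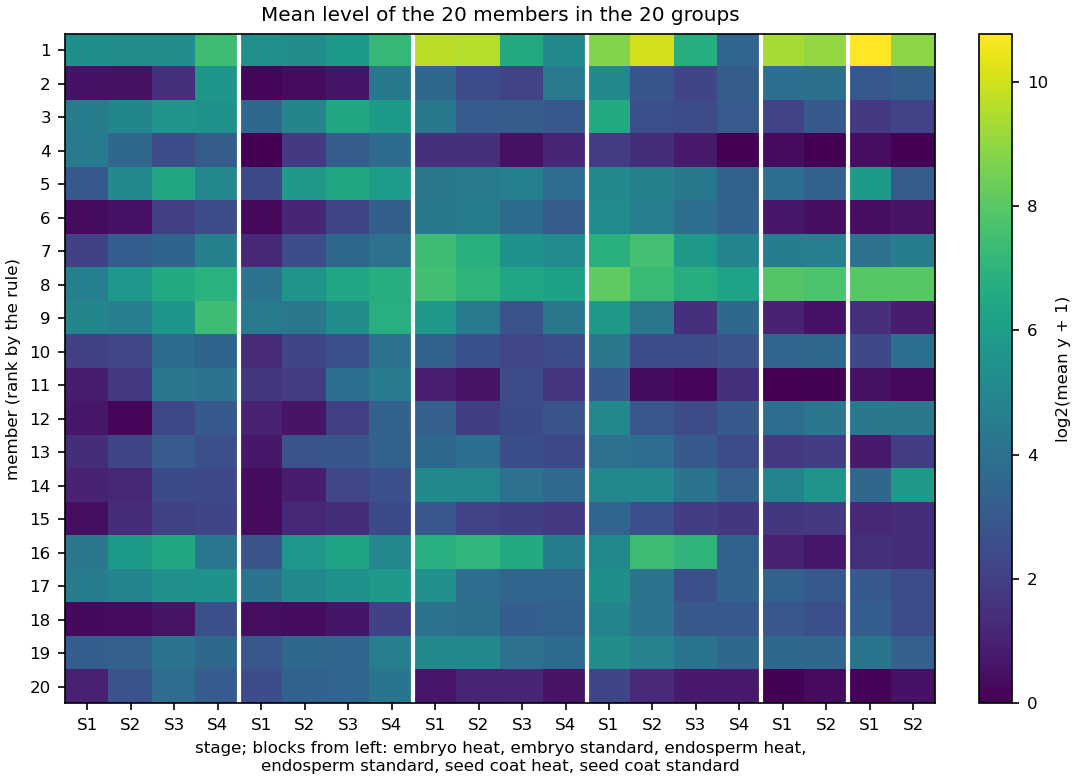
Mean level of each of the 20 members (rows, by rank) in the 20 groups (columns, by tissue, temperature and stage), as log2(mean y + 1). Embryo columns brighten and endosperm columns darken from S1 to S4 for most members, and member 1 is the brightest, with a mean y of 809 in endosperm heat S1 and 1744 in standard seed coat S1.

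The heat libraries allowed the pattern to be tested in samples that had no part in choosing the members. In heat embryo, 17 of the 20 members were higher at S4 than at S1 and none was lower, by the edgeR quasi-likelihood test at an adjusted p below 0.01 (Benjamini-Hochberg), the criterion for every call given here. Over all 20487 transcripts tested, 36.6% were called higher and 36.6% lower. The members' log2 fold changes of S4 over S1 ran from -1.28 to 6.93 with a median of 2.32, while the median of all transcripts was 0.03. For 17 of 20 members every S4 library lay above every S1 library on y, which held for 37.5% of all transcripts tested. The 3 members without a call were those ranked 4, 16 and 19. An unadjusted p below 0.05 in the lower direction was reached by 1 member, the one ranked 4, and DESeq2 also called 0 lower. That member was called lower at an adjusted p below 0.05, and 1 member was called lower with no filter and without S3 replicate 3. Without S4 replicate 3, the library with the most signal of the endosperm-high list, 18 members were called higher. The part of the endosperm-high and seed-coat-high signal at S4 in single members was not tested.

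In heat endosperm, 13 of the 20 members were lower at S4 than at S1, and 1 was higher. Of all 24670 transcripts tested, 30.6% were called lower and 30.3% higher. The members' log2 fold changes ran from -4.36 to 1.55 with a median of -1.12, against a median of -0.04 over all transcripts. The S1 libraries lay wholly above the S4 libraries for 16 of the 20 members, and for 52.9% of all transcripts tested. The lone member called higher was the one ranked 2, and without S4 replicate 2 there were 2 members called higher. Embryo groups had 3 libraries and endosperm groups 2, so the counts of the tissues are given side by side and were not compared. The 6 members with no call were those ranked 4, 5, 11, 12, 18 and 20.

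Both calls, higher in embryo and lower in endosperm, were made for 11 of the 20 members, and for 2.19% of the 19466 transcripts tested in both tissues. A further 6 members were called higher in embryo and not lower in endosperm, among them member 2, which was called higher in both tissues. In the remaining members, 2 were called lower in endosperm and not higher in embryo, and 1 had neither call. Log2 fold changes were positive in embryo and negative in endosperm for 17 members, positive in both for 2 and negative in both for 1. These signs were not counted over all transcripts. In a joint fit of the 20 heat libraries, the stage change in embryo exceeded that in endosperm in 18 members, against 17.3% of 26025 transcripts, and was below it in none (17.5%), where DESeq2 and an unadjusted p below 0.05 also gave 0. The difference between the 2 stage changes ran from -1.07 to 6.55 on the log2 scale, with a median of 3.29 and a median over all transcripts of 0.11. On the scale of the rule itself, 12 members reached a rise of 1.5 in heat embryo and 4 a fall of 1.5 in heat endosperm. For either tissue alone, the share of open transcripts under heat was not counted. Both were reached by 2 members, against 10 of all open transcripts (0.0634%).

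**Figure D2:**
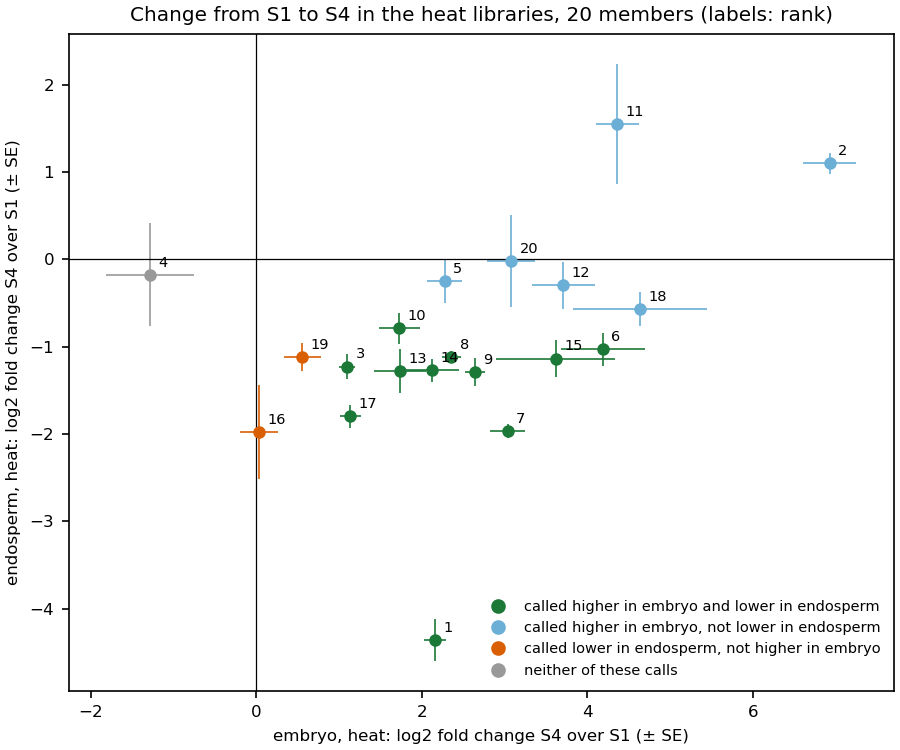
Log2 fold change of S4 over S1 under heat in embryo (x axis) and in endosperm (y axis) for the 20 members, with standard errors from the edgeR fits and the rank beside each point. The 11 members called in both tissues lie to the right of 0 and below 0, members 2 and 11 lie above 0 in endosperm, and member 4 lies below 0 in both.

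The first member, MtrunA17_Chr2g0301621, had the largest difference between the tissues at both temperatures. It is a transcript of 3074 bases on chromosome 2. In heat embryo its y was 152, 156 and 200 at S4, against 38.5, 48.2 and 35.0 at S1, so the 2 groups did not overlap. Its heat embryo levels at S2, between 37.0 and 43.2, and at S3, between 33.3 and 42.1, overlapped those at S1, and the rise fell in the last step. In heat endosperm its y was 22.7 and 43.7 at S4, against 801 and 816 at S1. The endosperm level was still 725 and 815 at S2, and it was 86.9 and 97.8 at S3. The log2 fold changes of S4 over S1 were 2.16 (SE 0.13, edgeR adjusted p = 1.67e-09) in embryo and -4.36 (SE 0.24, adjusted p = 2.84e-07) in endosperm. The embryo stood above the endosperm at S4 (log2 fold change 2.53, SE 0.20) and below it at S1 (-4.03, SE 0.19). Its fall in endosperm came before its rise in embryo, since the embryo level at S3 was still that of S1.

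The second member, MtrunA17_Chr1g0189721, a transcript of 1185 bases on chromosome 1, showed the embryo side of the pattern and not the endosperm side. In heat embryo its y was 52.2, 51.0 and 43.5 at S4, against 0, 0.66 and 0.65 at S1, where it had only 8.6 counts over 3 libraries. At S3 it had 2.09, 1.54 and 1.74, so nearly the whole rise fell between S3 and S4. In heat endosperm its y was 20.8 and 19.1 at S4, against 10.67 and 11.46 at S1, with lower values of 3.80 and 3.56 at S3 in between. It therefore fell and then rose in heat endosperm, and was called higher at S4 than at S1 with a log2 fold change of 1.10 (SE 0.12, edgeR adjusted p = 3.33e-05). In embryo its log2 fold change was 6.93 (SE 0.32, adjusted p = 1.79e-10). Its counts were not whole numbers in any of the 46 libraries that detected it, so its reads were shared with similar transcripts and its level is uncertain.

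Of the other members, the one ranked 9 had the smallest adjusted p of the embryo test. In heat embryo its y was 162, 162 and 186 at S4, against 24.1, 30.5 and 33.3 at S1, and in heat endosperm it was 21.7 and 14.99 at S4, against 56.0 and 51.1 at S1. Its endosperm level was lowest at S3, with 5.97 and 5.59, and was called higher again at S4. The member ranked 7 had the highest embryo level of its course in the S4 libraries, with 20.5, 21.6 and 32.8, against 3.01, 3.79 and 2.92 in the S1 libraries. In heat endosperm it had 37.0 and 36.7 at S4, against 172 and 172 at S1. The highest of its embryo values, 32.8, was in replicate 3, the library with the most signal of the endosperm-high list. The member ranked 8 had mean y of 24.2, 53.0, 95.3 and 115 in heat embryo and 182, 127, 82.7 and 70.0 in heat endosperm from S1 to S4. It was among the 6 members with a rise at every step of heat embryo, as counted by group means, and 6 members had a fall at every step of heat endosperm. The share of all transcripts with such courses was not counted.

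A pair of members with the lowest embryo change did not repeat the rise under heat. MtrunA17_Chr3g0135681, ranked 16, a transcript of 378 bases on chromosome 3 and the shortest member, had y of 19.1, 22.6 and 11.2 in embryo heat S4, against 18.2, 15.8 and 21.3 in embryo heat S1. Its log2 fold change was 0.04 (SE 0.23, edgeR adjusted p = 0.887). In between it had 75.9, 92.5 and 95.4 at S3, so that its course under heat was a rise followed by a fall, and the step from S3 to S4 was called lower with -2.35 (SE 0.22, edgeR adjusted p = 9.26e-07). In heat endosperm it had 5.07 and 40.6 at S4, against 108 and 106 at S1. The S4 replicates lay far apart in this transcript, and the call of the fall (log2 fold change -1.98, SE 0.54, edgeR adjusted p = 0.00877) rests on them.

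MtrunA17_Chr4g0015701, ranked 4, a transcript of 2145 bases on chromosome 4, had y of 7.75, 5.07 and 11.2 in embryo heat S4, against 17.8, 28.7 and 16.7 in embryo heat S1. All 3 S4 values lay below the S1 values, and the log2 fold change of -1.28 (SE 0.53, edgeR adjusted p = 0.0383) missed the threshold. In standard embryo it was at 15.1, 10.1 and 12.3 at S4 and at 0 in all 3 libraries at S1, the values that made it a member. In heat endosperm its values stayed at or below 1.85, with a log2 fold change of -0.18 (edgeR adjusted p = 0.792). Its counts were not whole in 30 of the 32 libraries that detected it.

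**Figure D3:**
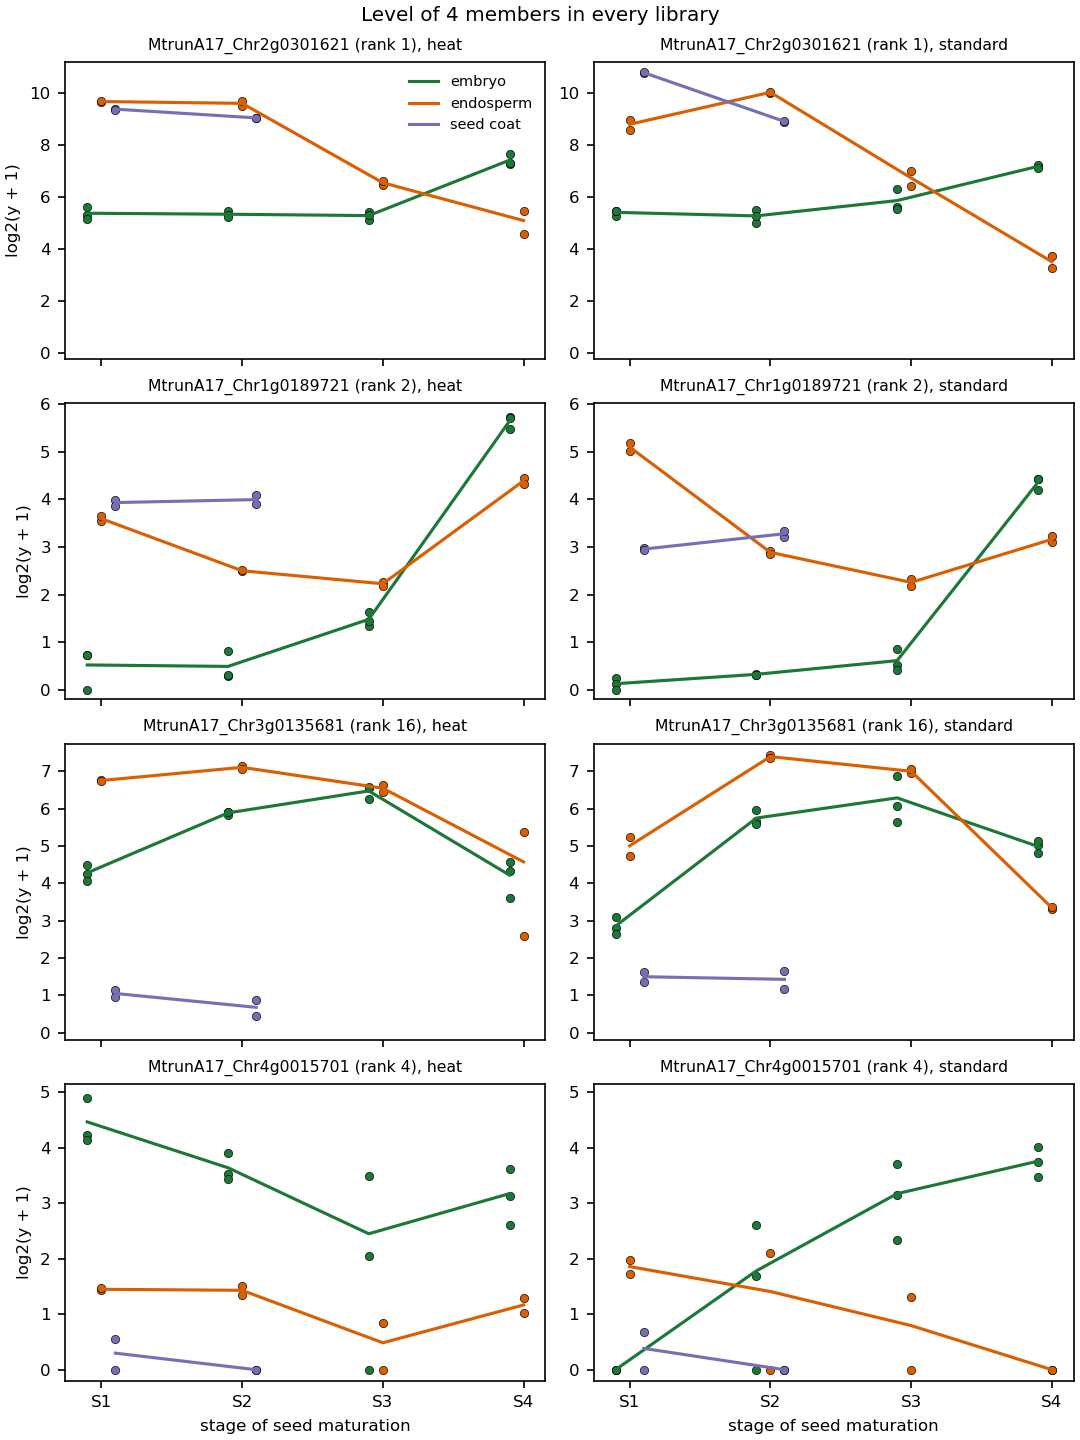
Level of 4 members, as log2(y + 1), in every library (points) with group means (lines), by stage, under heat (left) and at standard temperature (right), in embryo, endosperm and seed coat. Members 1 and 2 rise in embryo at S4 at both temperatures, member 16 peaks at S3 in heat embryo, and member 4 starts high in heat embryo and at 0 in standard embryo.

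Each step between neighbouring stages was also tested. In heat embryo, 6 members were called higher at S2 than at S1 (12% of all transcripts), 15 higher and 0 lower at S3 than at S2 (21.2% and 21.4%) and 5 higher at S4 than at S3 (20.7%). The last step also had 3 members called lower (29.1%), those ranked 5, 16 and 20. The median log2 fold changes of the members were 0.38, 1.19 and 0.15 for the 3 steps, so the step from S2 to S3 was the one in which most members rose. None was lower at that step at an unadjusted p below 0.05 or by DESeq2, while 1 was called lower without S3 replicate 1. The 3 lower calls of the last step were 2 by DESeq2 and without S3 replicate 2 or S4 replicate 1 or 3, and 4 without S3 replicate 1. In heat endosperm, 8 members were called lower at S2 than at S1 (9.99%), 7 lower at S3 than at S2 (16.3%) and 1 lower at S4 than at S3 (6.88%). Opposite calls in endosperm were 1 at the step from S2 to S3 (18.9%) and 2 at the step from S3 to S4 (8.55%). Endosperm medians were -0.33, -0.43 and -0.17, and most calls in endosperm came in the first steps. The opposite call from S2 to S3 was 0 without any 1 of the S2 and S3 libraries and 2 without S4 replicate 1, that of the first step was 1 without either S4 library, and the 2 opposite calls of the last step were 1 without S3 replicate 2. Without endosperm S1 replicate 1 the lower count for the first step was 5. The count for the last step was 0 without either S3 library, 4 without S4 replicate 1 and 3 without S4 replicate 2.

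The embryo mean was highest at S4 in 10 members and at S3 in 9 under heat, while in the standard libraries it was highest at S4 in 17 and at S3 in 3. Shares of all transcripts were not counted for the place of the highest mean. Member 5 shows the S3 peak in heat embryo, with y of 72.2, 93.4 and 86.9 at S3 and 34.9, 34.5 and 22.2 at S4, against 5.38, 7.58 and 7.22 at S1. Its level at S4 was nonetheless above that at S1, with a log2 fold change of 2.28 (SE 0.21, edgeR adjusted p = 2.58e-07). Whether the place of the peak differed between temperatures was not tested, since the standard courses were used to choose the members.

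The tissue with the higher level differed between mature and early seeds in a part of the members. In the heat libraries at S4, 11 of the 20 members were higher in embryo than in endosperm (22.4% of all transcripts) and 1 was lower (29.6%). At S1, 16 were lower in embryo than in endosperm (38.1%) and 2 were higher (30%). The median log2 fold change of embryo over endosperm was 1.11 at S4 and -2.38 at S1, against -0.15 and -0.28 over all transcripts. In all, 7 members changed sides with a call at both stages, and for 5 of these the stage change was also called in both tissues. The share of all transcripts with these joint calls was not counted. Members 6, 7 and 18 were among those with no call at S4, after log2 fold changes of -5.87, -5.43 and -5.93 at S1. The member ranked 14 was still called lower in embryo at S4, with -1.31. The 1 lower call at S4 was 2 with library sizes less the 100 largest counts, without embryo S4 replicate 3 and without endosperm S4 replicate 1, and the 2 higher calls at S1 were 1 with those library sizes. By group means under heat, 14 members were higher in embryo at S4, 17 were higher in endosperm at S1 and 11 did both. Shares over all transcripts were not counted for these means.

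**Figure D4:**
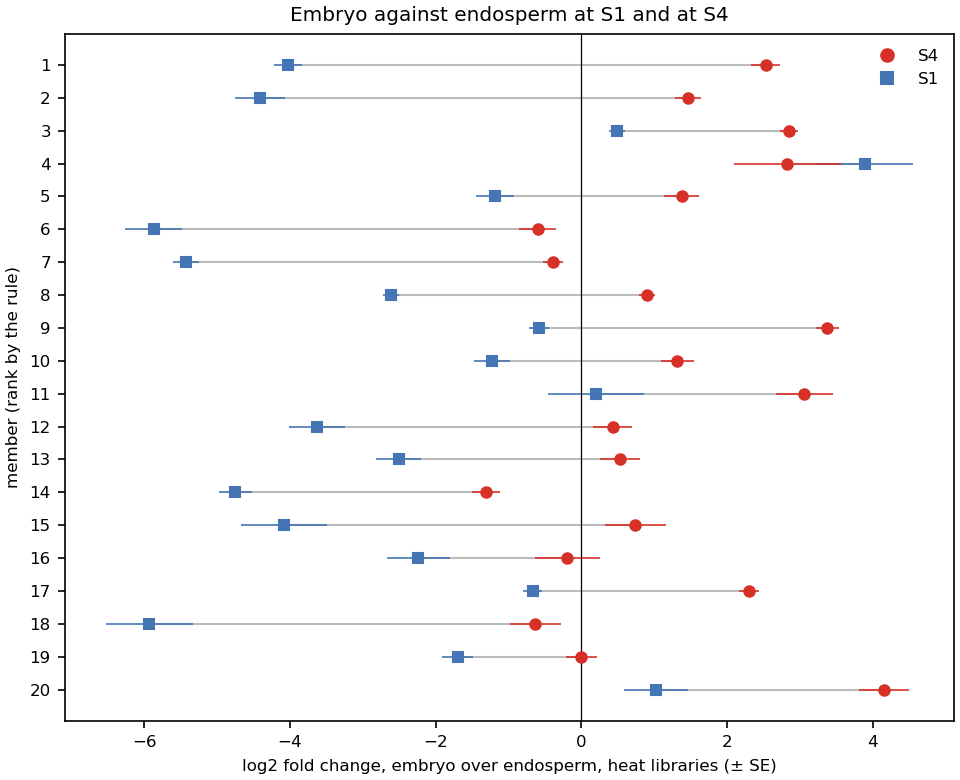
Log2 fold change of embryo over endosperm in the heat libraries at S4 (circles) and S1 (squares) for the 20 members, with standard errors from the edgeR fit. All members but the one ranked 4 have the S4 circle to the right of the S1 square, and 11 circles were called above 0.

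The seed coat surrounds both tissues, so its levels were set beside those of the endosperm. Under heat at S1, 12 members were lower in seed coat than in endosperm (31.6% of all transcripts) and 3 were higher (32.9%), with a median log2 fold change of -1.63 against -0.01 over all transcripts. Member 1 did not differ by the test, with y of 670 and 650 in seed coat against 801 and 816 in endosperm (log2 fold change -0.06, SE 0.18, edgeR adjusted p = 0.764). Members 9 and 16 had y of 0.93 to 1.21 in seed coat and 51.1 or more in endosperm, with log2 fold changes of -5.33 and -6.40. In all, 4 members had a mean y below 1 in heat seed coat S1. The endosperm-high list summed to 453 to 490 in heat seed coat S1, against 2760 to 2830 in heat endosperm S1, and the seed-coat-high list to 14100 in both heat seed coat S1 libraries, against 979 to 993 in heat endosperm S1. The part of these signals in single members was not tested. The 3 higher calls were 1 with library sizes less the 100 largest counts and without endosperm S1 replicate 2, and 2 by RLE scaling, by DESeq2 and without endosperm S1 replicate 1 or either seed coat S1 library. Between S2 and S1 of heat seed coat, 17 members could be tested, of which 1 was lower (7.93%) and 2 were higher (5.79%). The count of 1 lower was 3 without either S1 library and 0 without either S2 library, and the count of 2 higher was 1 with no filter, 3 without S1 replicate 2 and 0 without either S2 library.

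Heat was set against standard temperature with tests at S2 and S3 only, since the standard S1 and S4 libraries chose the members and those of S2 and S3 entered only the limits on the highest level. In embryo at S2, no member was called higher (0.641% of all transcripts) or lower (0.691%) under heat. At an unadjusted p below 0.05, 3 members were higher and 4 lower, and DESeq2 also called 0 in each direction. The share of all transcripts at that unadjusted p was not counted. Without standard S3 replicate 2, which shares the estimate of the spread, 1 was called lower. In embryo at S3, 5 members were higher (15.3%) and 1 was lower (7.99%) under heat, with a median log2 fold change of heat over standard of 0.49 and 0.11 over all transcripts. Member 2 had y of 2.09, 1.54 and 1.74 in heat embryo S3, against 0.43, 0.34 and 0.82 in standard embryo S3. These were 13.0, 8.6 and 9.7 against 3.4, 2.2 and 6.4 estimated counts, so the difference rests on few reads. Member 9 had y of 54.2, 48.0 and 47.6 in heat embryo S3, against 42.8, 35.3 and 36.4 in standard embryo S3 (log2 fold change 0.72, SE 0.11, edgeR adjusted p = 0.000108). The groups did not overlap in either member, and the share of all transcripts without overlap was not counted here.

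These embryo S3 counts turned on single libraries. The 5 higher calls were 11 without standard replicate 2, and 3 without standard replicate 1 or 3 or heat replicate 2 or 3, while the 1 lower call was lost without standard replicate 1 or heat replicate 1 or 3. The endosperm-high list, here 60 transcripts, summed to y of 55.2, 22.3 and 80.2 in standard embryo S3 replicates 1, 2 and 3. Leaving out replicates 1 and 3 together, a choice made after seeing the data, leaves standard embryo S3 with 1 library, assumed to vary like the other groups. The calls over all transcripts were then 1.64% higher and 0.343% lower, and the 0 members called in either direction say nothing about the members.

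In endosperm at S2, no member was higher (8.84%) and 2 were lower (4.36%) under heat, those ranked 7 and 12. An unadjusted p below 0.05 was reached by 2 members higher and 5 lower. Shares of all transcripts at this unadjusted p were not counted, here or at S3. DESeq2 called 0 higher and 2 lower. Leaving out 1 library at a time gave 0 to 1 higher and 1 to 3 lower calls. In endosperm at S3, 4 members were higher (6.8%) and none lower (3.54%), with 2 lower at an unadjusted p below 0.05 and 0 lower by DESeq2. The 4 were those ranked 3, 9, 11 and 17. Member 11 had y of 4.97 and 3.99 in heat endosperm S3, against 0.17 and 0.09 in standard endosperm S3 (log2 fold change 5.07, SE 0.83, edgeR adjusted p = 0.000908). Its counts were 55 and 45 in those heat libraries and only 2 and 1 in the standard ones, so the size of this change is uncertain. All 4 were among the members called higher in heat embryo at S4 than at S1, a call that 17 of the 20 members had. The count of 4 was 2 without either heat S3 library and 1 without standard S3 replicate 2.

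At the stages used by the rule, values are given with no test. In embryo the median difference of heat over standard, on the log2(mean y + 1) scale, was -0.32 at S4, with 6 members higher under heat, and 0.43 at S1, with 15 higher. In endosperm it was 0.17 at S4, with 13 members higher under heat, and -0.60 at S1, with 5 higher. By these medians the span between the last and the first stage was narrower under heat on both sides, in values where the standard libraries had been selected for a wide span.

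Position, length and shared reads were not used by the rule. By the chromosome in their identifiers, 7 lay on chromosome 4 (35.0%, against 16.9% of open transcripts), 5 on chromosome 3 (25%, against 14.3%), 3 each on chromosomes 1 and 2, and 1 each on chromosomes 5 and 8. No member lay next to another in the order of the identifiers. Their length had a median of 1148.5 bases (378 to 3074), against 1897 bases for the other 15753 open transcripts. Of the members' nonzero counts, 30.2% were not whole numbers, which shows reads shared among similar transcripts, against 29.6% over the whole table. The 6 members with shared reads in at least 24 libraries had 4 embryo, 3 endosperm and 5 difference calls, and the other 14 had 13, 10 and 13. Depth also limits the lowest embryo values, since 4 members, those ranked 2, 6, 15 and 18, had under 10 counts summed over the 3 heat embryo S1 libraries, and all 4 were called higher at S4.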

How the data were processed

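RNA-seq reads of 50 bases were cleaned and quantified by the authors on the version 5 transcriptome of Medicago truncatula A17 with Salmon, with correction for sequence bias and no alignment to the genome, and the deposited estimated counts per transcript are neither normalized nor pooled. Reads that fit several transcripts are divided among them, so counts need not be whole (tolerance 0.001). The deposited lengths were used for TPM. No column of another series was present.

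Estimated counts were rounded and tested in R 4.3.3 (edgeR 4.0.16, limma 3.58.1). The filterByExpr filter was set to a minimum count of 10 and a total of 15, and transcripts were scaled by TMM, fitted by the quasi-likelihood method on the heat libraries of a tissue, on the heat libraries of several tissues for comparisons between tissues, or on all libraries of a tissue for heat against standard, and adjusted by Benjamini-Hochberg over all transcripts tested, with adjusted p below 0.01 as in the paper and no minimum fold change. The authors' time-course tool was not used. DESeq2 1.42.0, RLE scaling, library sizes less the 100 largest counts or unscaled, other filters and thresholds, a replicate block and leaving out each library were tried. Scripts were tested on simulated data.

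The members, the rule and the lists were chosen with earlier results of these data known. None of the 44473 identifiers matched the 39590 rows of the RefSeq gene table provided, so no names, gene lists or sequences were used and at most 4 identifiers are given: the first 2 by rank and the 2 with the lowest embryo change under heat. Further members are given by rank.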

Additional observations from a re-analysis of the deposited data

Results flagged for a closer look

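The stage change S4 over S1 under heat was greater in embryo than in endosperm in 18 of the 20 members. These calls are from the test of that difference itself (edgeR quasi-likelihood test, adjusted p below 0.01). Over all transcripts tested, 17.3% were called in this direction and 17.5% in the other. The rule chose these members for such a difference in the standard libraries, and the values below are from the heat libraries. As log2 embryo change less endosperm change, the difference was 6.55 for MtrunA17_Chr2g0301621 and 5.89 for MtrunA17_Chr1g0189721. For the members ranked 6, 7, 12, 15 and 18 it was 5.27, 5.05, 4.06, 4.82 and 5.30. In members 8, 9, 13, 14 and 20 it was 3.51, 3.96, 3.04, 3.44 and 3.13. The smaller differences were those of members 3, 5, 10, 11, 17 and 19, with 2.36, 2.57, 2.55, 2.85, 2.97 and 1.71. Member 16 missed the threshold with 2.05 (SE 0.63, edgeR adjusted p = 0.0128), and member 4 had -1.07 (SE 1.04, edgeR adjusted p = 0.436). Every group held 2 or 3 samples, so no sample was checked for standing apart from its group by the rule for 4 or more samples.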

How the results depend on the processing

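Of 127 recomputed counts other than those with 1 library left out, 113 stayed within 1.5 times of the reported count. A filter of at least 10 counts in every library left 10 members to test in heat embryo and in the joint fit of embryo and endosperm. Of these, 8 were called higher in heat embryo, against 37.8% of all transcripts under that filter. All 10 were called for a larger stage change in embryo than in endosperm. That call was made for 17.3% of all transcripts in the main fit, which tested another set of transcripts than this filter leaves. The 1 lower call in heat seed coat was lost (0) under RLE scaling, library sizes less the 100 largest counts, no filter and the replicate block. With library sizes less the 100 largest counts, heat over standard at S3 gave 2 members higher in embryo and 1 lower in endosperm. Without standard embryo S3 replicates 1 and 3, which leaves 1 library in that group, the embryo S3 counts were 0 and 0, with 1.64% and 0.343% called over all transcripts. Unscaled library sizes moved the median of all transcripts to 0.55 in heat embryo, -0.57 in heat endosperm and 1.12 for their difference, with member medians of 2.83, -1.65 and 4.29. Such a rescaling moves all transcripts alike.

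The labels do not say whether replicate numbers pair the samples. Same-numbered deviations correlated at -0.34 to 0.18 in heat embryo, -0.03 to 0.04 in heat endosperm and -0.57 to 0.54 over all embryo libraries. The medians were -0.03, 0.01 and -0.01, so no general pairing was seen, and pairing within some groups was not tested. The replicate block gave 17, 13 and 18 for the embryo, endosperm and difference counts and changed no other count by over 1.5 times than that of the seed coat.

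Leaving out 1 library gave 17 to 18 for the embryo rise, 11 to 14 for the endosperm fall and 17 to 19 for the difference. The embryo steps gave 5 to 6, 12 to 15 and 5 to 5, and the endosperm steps 5 to 9, 5 to 10 and 0 to 4. Embryo against endosperm gave 14 to 16 at S1 and 10 to 11 at S4, and seed coat gave 9 to 13 against endosperm and 0 to 3 between stages. Heat over standard gave 0 to 0 higher and 0 to 1 lower in embryo at S2, 3 to 11 and 0 to 1 in embryo at S3, 0 to 1 and 1 to 3 in endosperm at S2, and 1 to 4 and 0 to 1 in endosperm at S3.

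The rule gave 32 members at a pseudocount of 0.5, 7 at 5, 92 at a threshold of 1 and 2 at a threshold of 2, alternatives chosen after seeing the data. Scaled by the whole library it gave 25, of which 13 were among the 20. Leaving out 1 standard library gave 19 to 22, with 16 to 20 of the 20 kept. Taking every transcript past the thresholds gives the same 20. The causes were not tested.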
